A study of Mus musculus with 2 samples.

Results

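The 10 genes described here encode transcription factors that set up or maintain the epithelium and the mesenchyme of the lung: Nkx2-1, Gata6, Cebpa, Sox2, Sox9 and Etv5 of the epithelium, and Tbx2, Tbx4, Tbx5 and Tcf21 of the mesenchyme. They were taken by gene symbol from the 43346 gene rows of the deposited tables, and all 10 were found. The RNA came from the lung of 1 female C57BL/6J mouse, an inbred strain, aged 10 weeks. Its polyadenylated RNA was sequenced in 2 technical replicates, of which replicate 2 was made later than replicate 1 per the labels, and both stand for 1 animal. There is no mutant, treated or control group. Each SD below is taken over those technical replicates (n = 2) and carries no spread between animals.

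Replicate 2 held 17110882 expected counts and replicate 1 held 16104442. Expected counts are estimated reads per gene. A floor of 3 counts corresponds to 0.175 CPM, a count scaled by the library total, in replicate 2 and 0.186 CPM in replicate 1. The libraries stood far apart. TPM gives a transcript's abundance relative to all transcripts of the library, corrected for length. Of the 14139 genes whose TPM averaged 1 or more, 39.3% had a ratio over 2-fold higher in replicate 2 and 28.2% a ratio over 2-fold lower. Across these genes the ratio of the libraries followed GC content, with Spearman's rho of 0.834 over 14107 genes against transcript GC, a description across genes that are not independent replicates.

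Nkx2-1 is the homeodomain factor that marks the lung part of the foregut and later drives surfactant and secretoglobin genes. GATA6 and C/EBPα act with it in the maturation of the alveolar epithelium. SOX2 marks the proximal airway epithelium, whereas SOX9 and ETV5 mark the distal tips of the embryonic airway tree. In the mesenchyme TBX4 and TBX5 act at lung bud outgrowth, TBX2 keeps the embryonic mesenchyme dividing, and TCF21 marks fibroblast progenitors, including the lipid-storing fibroblasts of the alveolus. Several of these genes are active outside the lung too: Nkx2-1 in thyroid, Cebpa in fat, and Gata6, Tbx2 and Tbx5 in heart.

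The sequences below show where the members and their transcripts differ in base composition and exons, the features set beside the library ratios further on. The first 4 are coding sequence from the reference transcripts of GENCODE M21 on GRCm38, the assembly also called mm10, written 5′ to 3′ with each G and C in capitals. For the 2 members of highest transcript GC content, Tbx2 and Cebpa, the 90 coding bases of highest GC are given. The Tbx2 stretch lies in exon 1 (chr11:85833277-85833366, plus strand, 88.9% GC) and the Cebpa stretch in the gene's single exon (chr7:35119733-35119822, plus strand, 85.6% GC). Coding exon 5 of Etv5-203 (chr16:22421819-22421872, minus strand, 63.0% GC) is absent from Etv5-201. Coding exon 1 of Tbx4-201 (chr11:85890063-85890263, plus strand, 74.6% GC) is absent from Tbx4-202.
Tbx2: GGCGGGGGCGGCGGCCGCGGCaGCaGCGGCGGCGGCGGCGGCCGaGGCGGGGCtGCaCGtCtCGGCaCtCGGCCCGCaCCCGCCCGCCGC
Cebpa: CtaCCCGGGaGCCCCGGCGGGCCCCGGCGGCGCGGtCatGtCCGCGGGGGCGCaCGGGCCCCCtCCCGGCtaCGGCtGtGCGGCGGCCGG
Etv5-203 exon 5: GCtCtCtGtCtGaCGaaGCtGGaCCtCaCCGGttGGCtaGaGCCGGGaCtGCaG
Tbx4-201 exon 1: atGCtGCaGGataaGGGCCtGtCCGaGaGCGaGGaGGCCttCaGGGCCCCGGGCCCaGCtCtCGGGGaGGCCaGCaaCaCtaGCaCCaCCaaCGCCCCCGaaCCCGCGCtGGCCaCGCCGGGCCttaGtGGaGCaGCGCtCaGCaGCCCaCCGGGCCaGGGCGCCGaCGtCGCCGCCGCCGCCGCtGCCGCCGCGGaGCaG

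A TPM of at least 1 in both libraries was reached by 9 of the 10 members, and only Sox9 stayed below it in both. The 10 members summed to 407 TPM in replicate 2, against 304 TPM in replicate 1. The 6 epithelial members summed to 157 TPM in replicate 2, against 218 TPM in replicate 1, whereas the 4 mesenchymal members summed to 250.5 and 86.0 TPM. The mesenchymal sum was therefore the larger in replicate 2 and the smaller in replicate 1. For the level of a gene in whole lung RNA, fewer cells of a type and less RNA per cell cannot be told apart. This caveat is about levels, since both libraries are of the same lung. Differences between the libraries are given as ratios of replicate 2 over replicate 1 of the scaled counts, with a 95% exact Clopper-Pearson interval for counting error, and have no replicate check.

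Nkx2-1 (ENSMUSG00000001496.11, chromosome 12, 56531958 to 56536908, minus strand) was the highest member in replicate 1. It was measured at 54.8 TPM from 1798 counts in replicate 2 and at 124 TPM from 2857 counts in replicate 1, a mean of 89.3 ± 48.8 TPM (SD, n = 2). By scaled counts it was 2.02-fold lower in replicate 2 (interval 1.91 to 2.15), so the 2-fold limit lies within its counting interval. With scaling by total counts its log2 ratio was -0.76, within 2-fold. Among the protein-coding genes at a TPM of at least 1, it stood at the 85.2 percentile of 13015 genes in replicate 2 and the 91.4 percentile of 11214 genes in replicate 1.

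Gata6 (ENSMUSG00000005836.8, chromosome 18, 11052064 to 11085635, plus strand), a zinc finger factor of endoderm and its derivatives, was lower in replicate 2. It reached 8.88 TPM from 422 counts in replicate 2 and 31.8 TPM from 1072 counts in replicate 1 (mean 20.3 ± 16.2 TPM). The scaled count was 3.24-fold lower in replicate 2 (2.89 to 3.63).

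Cebpa (ENSMUSG00000034957.9, chromosome 7, 35119293 to 35121928, plus strand), the leucine zipper factor of alveolar type 2 cells and adipocytes, went the other way. It was at 57.5 TPM from 2222 counts in replicate 2 and at 12.3 TPM from 337 counts in replicate 1 (mean 34.9 ± 31.9 TPM). The scaled count was 5.17-fold higher in replicate 2 (4.61 to 5.82). Cebpa and Nkx2-1 were at nearly the same level in replicate 2, with a Cebpa to Nkx2-1 ratio of TPM of 1.05, and about an order of magnitude apart in replicate 1, where the ratio was 0.0992. Adipose markers, led by Fabp4, Car3, Cfd and Adipoq, summed to 1611 TPM in replicate 2, against 1158 TPM in replicate 1 over 9 genes, 8 of them detected in both. Of these Plin1 was at 0 in replicate 1. Their part in the Cebpa level was not tested.

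Sox2 (ENSMUSG00000074637.6, chromosome 3, 34650405 to 34652461, plus strand), the HMG-box factor of the conducting airways, had 5.30 TPM from 190 counts in replicate 2 and 23.4 TPM from 595 counts in replicate 1 (mean 14.3 ± 12.8 TPM). The scaled count was 3.99-fold lower in replicate 2 (3.38 to 4.72). Sox9 (ENSMUSG00000000567.5, chromosome 11, 112782224 to 112787760, plus strand), its relative of the embryonic distal tips, had 10 counts in replicate 2 and 16 counts in replicate 1. These are 0.160 and 0.360 TPM (mean 0.260 ± 0.141 TPM), above the floor of 3 counts in both libraries. The interval of the Sox9 ratio, 0.199 to 1.15, includes equality, so no difference was detectable at this depth. Sox2 exceeded Sox9 in both libraries.

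Etv5 (ENSMUSG00000013089.11, chromosome 16, 22381309 to 22439719, minus strand), an ETS factor induced by FGF signalling, differed little in its gene level. It was at 30.1 TPM from 1764 counts in replicate 2 and at 25.9 TPM from 1009 counts in replicate 1 (mean 28.0 ± 2.97 TPM). The ratio of scaled counts was 1.37 (1.27 to 1.48), which lies outside equality by counting error but within the 2-fold limit.

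Among the mesenchymal members Tcf21 (ENSMUSG00000045680.7, chromosome 10, 22817281 to 22820174, minus strand), a bHLH factor of fibroblast progenitors, had the highest mean of all 10 genes. It was at 155 TPM from 2542 counts in replicate 2 and at 46.0 TPM from 537 counts in replicate 1, a mean of 100.5 ± 77.0 TPM. The scaled count was 3.71-fold higher in replicate 2 (3.38 to 4.08). Tcf21 was first in replicate 2 and second, after Nkx2-1, in replicate 1.

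Tbx2 (ENSMUSG00000000093.6, chromosome 11, 85832551 to 85841948, plus strand), a T-box repressor, showed the largest ratio of the members. It was at 62.8 TPM from 3412 counts in replicate 2 and at 8.31 TPM from 320 counts in replicate 1 (mean 35.6 ± 38.5 TPM). The scaled count was 8.37-fold higher in replicate 2 (7.46 to 9.41). Its neighbour Tbx4 (ENSMUSG00000000094.8, chromosome 11, 85886422 to 85916097, plus strand) starts 44473 bases after the end of Tbx2 on the same strand, and behaved otherwise. Tbx4 was at 24.6 TPM from 1110 counts in replicate 2 and at 21.7 TPM from 676 counts in replicate 1 (mean 23.1 ± 2.10 TPM), a ratio of scaled counts of 1.29 (1.17 to 1.42). Which of these neighbours was higher depended on the library, since the Tbx2 to Tbx4 ratio of TPM was 2.55 in replicate 2 and 0.384 in replicate 1.

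Tbx5 (ENSMUSG00000018263.8, chromosome 5, 119832668 to 119885219, plus strand), the T-box partner of Tbx4 in bud outgrowth, was close between the libraries. It was at 8.10 TPM from 480 counts in replicate 2 and at 10.0 TPM from 421 counts in replicate 1 (mean 9.06 ± 1.35 TPM). The ratio of scaled counts, 0.895 with an interval of 0.783 to 1.02, includes equality. Tbx4 exceeded Tbx5 in both libraries, by a ratio of TPM of 3.04 in replicate 2 and 2.16 in replicate 1.

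**Figure D1:**
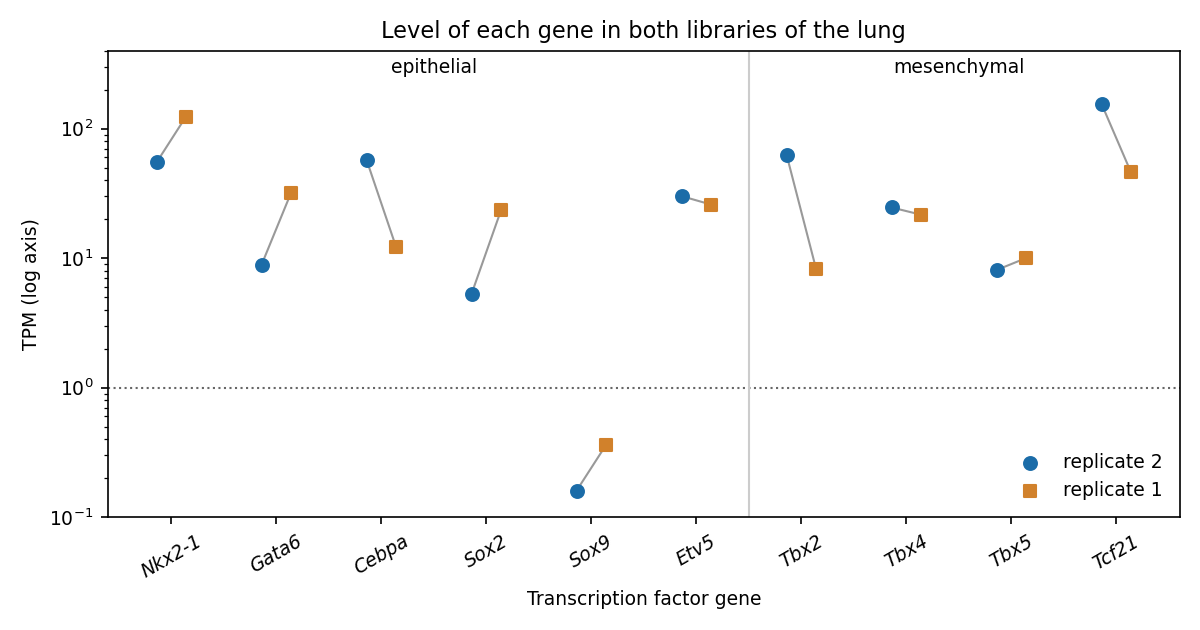
TPM of each of the 10 genes on a log axis, with replicate 2 (circles) left of replicate 1 (squares), epithelial members left of mesenchymal ones, and a dotted line at a TPM of 1. Tbx2 spans 62.8 and 8.31 TPM, Tbx4 stays at 24.6 and 21.7 TPM, and only Sox9 lies below the line.

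In 3 of the 9 members tested, Cebpa, Tbx2 and Tcf21, the ratio was over 2-fold higher in replicate 2, against 39.3% of all genes tested. In another 3, Nkx2-1, Gata6 and Sox2, it was over 2-fold lower in replicate 2, against 28.2% of all genes tested. Etv5, Tbx4 and Tbx5 lay within 2-fold, and Sox9 was not tested because its mean TPM was under 1. Both shares of the members are near those of all genes with this scaling. With a trend of the ratio on transcript GC content subtracted, 7 of the 9 were over 2-fold lower, against 19.6% of all genes, and 0 were over 2-fold higher, against 21.3%. With the trend on the AT-rich windows of the transcripts, described further on, 0 were lower, against 16.7%, and 1 was higher, against 17.6%. The median log2 ratio of the 9 was 0.37, beside 0.19 over all genes tested.

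The order of the members by TPM was poorly kept between the libraries. In replicate 2 it ran Tcf21, Tbx2, Cebpa, Nkx2-1, Etv5, Tbx4, Gata6, Tbx5, Sox2 and Sox9. In replicate 1 it ran Nkx2-1, Tcf21, Gata6, Etv5, Sox2, Tbx4, Cebpa, Tbx5, Tbx2 and Sox9. Of 45 pairs of members, 28 stood in the same order in both libraries, and Spearman's rho between the libraries was 0.345 over the 10 genes. By mean TPM the order was Tcf21, Nkx2-1, Tbx2, Cebpa, Etv5, Tbx4, Gata6, Sox2, Tbx5 and Sox9. Neighbours in that order had values that did not overlap between the libraries in 2 cases only, Etv5 above Tbx4 and Tbx5 above Sox9.

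The members differ widely in base composition, and the libraries' ratio was set beside it. GC content of the transcripts was 63.2% for Tbx2 and 62.6% for Cebpa, the highest of the 10, and 49.3% for Sox9, the lowest, with a median of 50.3% over all genes tested. The mean over a transcript hides a contrast within it. In Nkx2-1 the coding part had 68.5% GC, and the noncoding part of the main transcript had 42.8%. In Sox2 the coding and noncoding parts had 66.1% and 36.8%, in Sox9 64.1% and 40.6%, and in Gata6 66.0% and 44.9%. The Sox2 transcript has 2057 bases in the reference and 2457 in the deposit. Its GC values may therefore not describe the whole transcript that was quantified. Cebpa, with 71.9% in its coding and 56.2% in its noncoding part, and Tbx2, with 66.9% and 58.0%, had the noncoding parts of highest GC among the members with 1 transcript. Within single windows of 180 bases the GC content was still as low as 41.1% in Cebpa and 28.3% in Tbx2.

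A second measure takes the AT-rich end of this range, the 10th percentile of GC over windows of 180 bases along the transcript. It was 51.1% for Tbx2, 48.9% for Cebpa, 45.6% for Etv5, 40.6% for Tbx4, 40.0% for Tbx5 and 39.2% for Nkx2-1. It was lower for Gata6, at 33.9%, Tcf21, at 32.1%, Sox2, at 30.9%, and Sox9, at 27.8%, with a median of 42.8% over all genes. Over the 9 members tested, Spearman's rho of the library ratio was 0.750 with the window measure and 0.533 with transcript GC. Over all genes these were 0.869 for 14056 genes and 0.834. All 9 points share the same 2 libraries.

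Tcf21 departed from this order. Its windows were among the most AT-rich of the members, yet it was higher in replicate 2. The trend over all genes at its window GC lay at a log2 ratio of -1.66, whereas Tcf21 was measured at 1.89, a difference of 3.55. The Tcf21 transcript has 1223 bases in the deposit and 1267 in the reference used for GC. Its reads also cannot be told apart from those of the antisense gene Gm10824, described further on. For Nkx2-1 the measured value and the trend were -1.02 and -0.71, for Gata6 -1.69 and -1.51, for Sox2 -1.99 and -1.74, for Cebpa 2.37 and 2.62, and for Tbx2 3.06 and 3.82. These 5 members lay within 2-fold of the trend, as did Etv5, Tbx4 and Tbx5, so Tcf21 alone of the 9 lay past it. The place of Etv5 rests on the mean over its transcripts. With that trend subtracted, Cebpa and Tbx2 came to -0.25 and -0.75, which turns the sign of both. Subtracting a trend on transcript GC in its place left Tcf21 at 0.91 and put Nkx2-1 at -4.30, Gata6 at -5.10, Cebpa at -3.82 and Tbx2 at -3.37. Which measure of GC is used therefore decides how far these members lie from the other genes, and whether GC content sets their ratio was not tested.

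**Figure D2:**
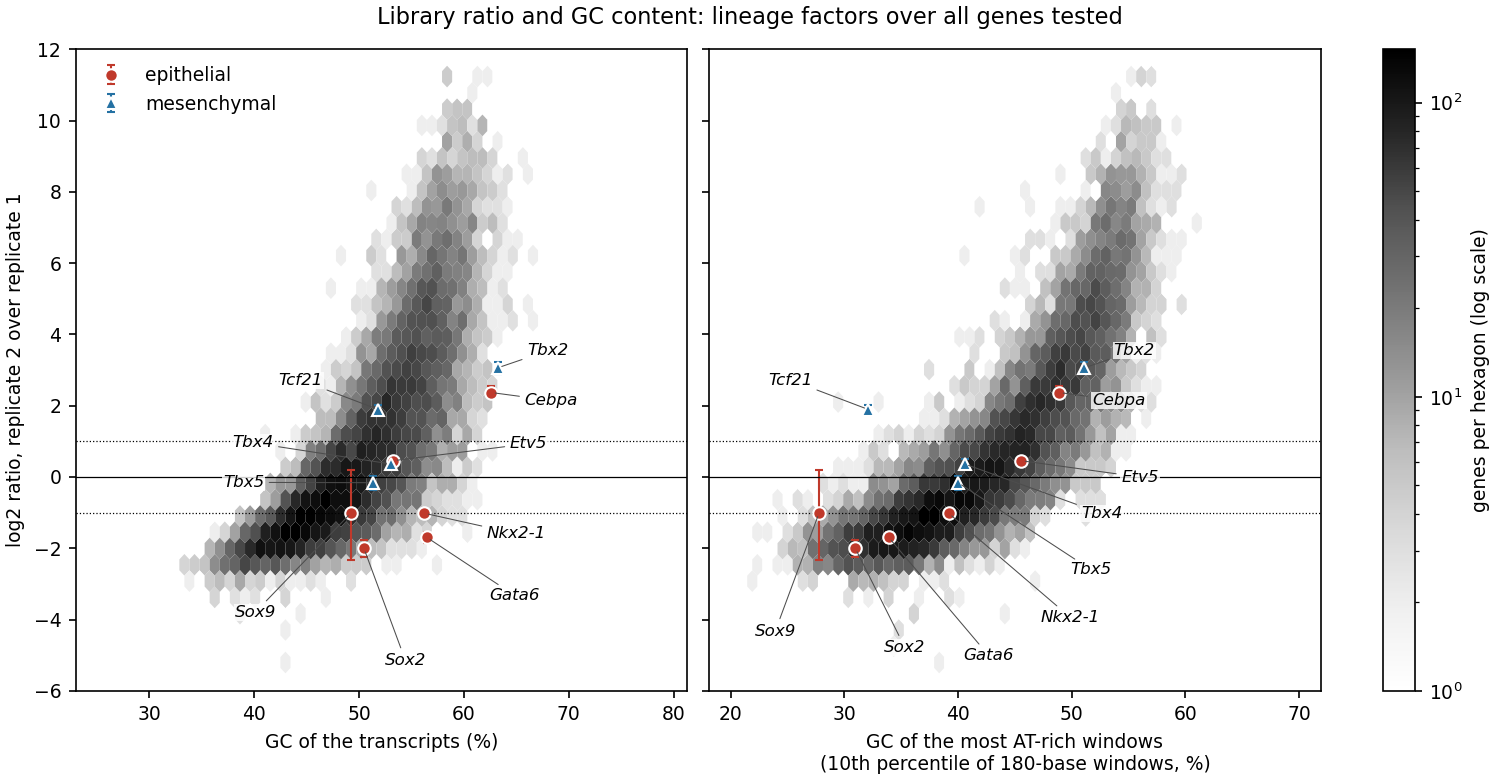
Log2 ratio of replicate 2 over replicate 1 against the GC content of the transcripts (left) and of their most AT-rich windows (right). Shaded hexagons count all genes tested on a log scale, markers show the 10 members with 95% counting intervals, and dotted lines mark 2-fold. Tcf21 lies above the bulk of the genes of its window GC of 32.1%, whereas Gata6 and Nkx2-1 lie below the genes of their transcript GC of 56.5% and 56.2% but among those of their window GC.

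The deposited tables hold 17 transcripts of the 10 members. A single transcript is listed for 7 members, and several for Nkx2-1, Etv5 and Tbx4. The main transcript was the same in both libraries for 8 members and differed for Etv5 and Tbx4. It could differ only in the 3 members with several transcripts, and did so in 2 of them. Over all genes with several transcripts and a TPM of at least 1 in both libraries it differed in 31.7%, or 2613 of 8231 genes. The shares are the authors' estimates.

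Nkx2-1-202 held 96.6% of the gene in replicate 2 and 99.9% in replicate 1. The other transcript, Nkx2-1-201, begins 1802 bases upstream with a noncoding exon of 600 bases at 61.0% GC, and encodes the same 1116 coding bases. It held 3.45% from 78.4 counts in replicate 2 and 0.14% from 4.96 counts in replicate 1.

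Etv5 lay within 2-fold at the gene level while its transcripts exchanged places. Etv5-201 was at 17.8 TPM in replicate 2, against 1.09 TPM in replicate 1, which are 59.0% and 4.21% of the gene. Etv5-203 was at 12.4 TPM in replicate 2, against 23.9 TPM in replicate 1, or 41.0% and 92.1%. Etv5-201 opens with a noncoding exon of 203 bases at 78.3% GC, which Etv5-203 lacks. Etv5-203 carries the coding exon 5 of 54 bases printed above, which adds 18 codons. Etv5-204, which also opens with a GC-rich exon, of 54 bases at 85.2%, was at 0 in replicate 2 and at 0.97 TPM in replicate 1, which is 3.73% of the gene from 3.36 counts. Etv5-202, with a first exon at 78.0% GC, was at 0 in both libraries.

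Tbx4 showed such an exchange too, with its gene level within 2-fold. Tbx4-201 was at 17.9 TPM in replicate 2, against 4.95 TPM in replicate 1, or 72.5% and 22.8% of the gene. Tbx4-203 was at 5.42 TPM from 254 counts in replicate 2 and at 0 in replicate 1. Tbx4-202 was at 1.34 TPM from 58.8 counts in replicate 2 and at 16.7 TPM from 519 counts in replicate 1, or 5.45% and 77.2%. Together Tbx4-201 and Tbx4-203, which share the coding exon printed above, held 94.6% in replicate 2 and 22.8% in replicate 1. Tbx4-202 starts 10343 bases after the start of Tbx4-203, in an intron of the longer transcripts, with its own noncoding exon of 246 bases at 58.5% GC. Its coding sequence is 300 bases, or 100 codons, shorter.

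**Figure D3:**
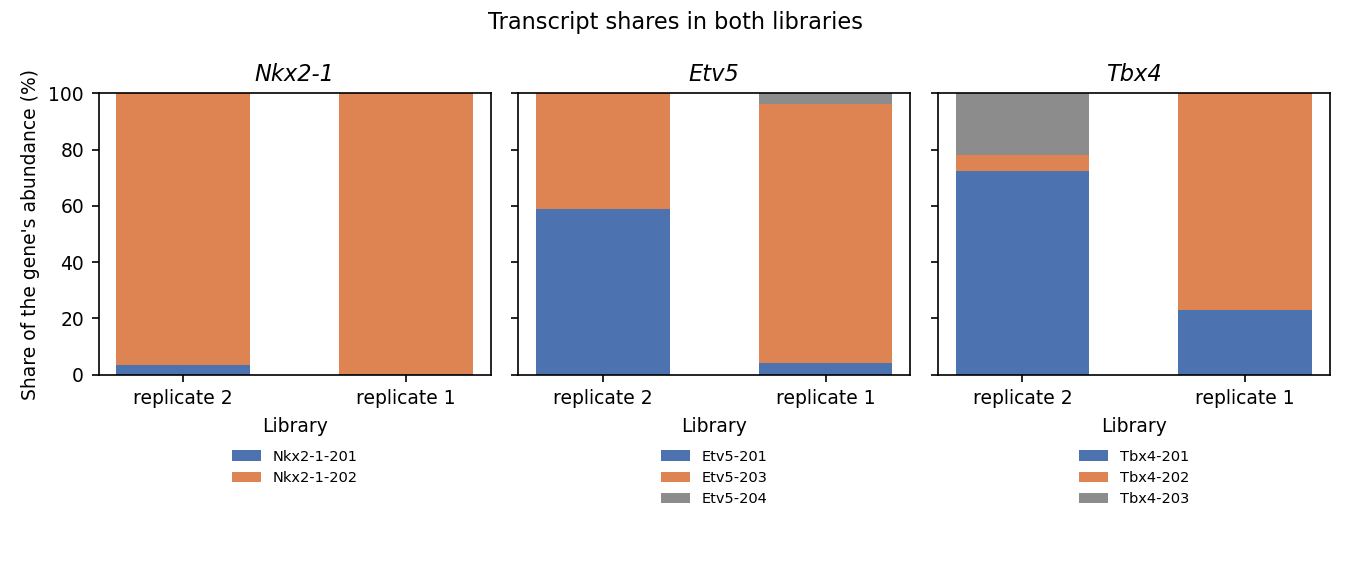
Share of each gene's abundance, in percent, held by each transcript of Nkx2-1, Etv5 and Tbx4, with replicate 2 left of replicate 1. Etv5-203 takes 41.0% of the bar in replicate 2 and 92.1% in replicate 1, and Tbx4-202 takes 5.45% and 77.2%.

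**Figure D4:**
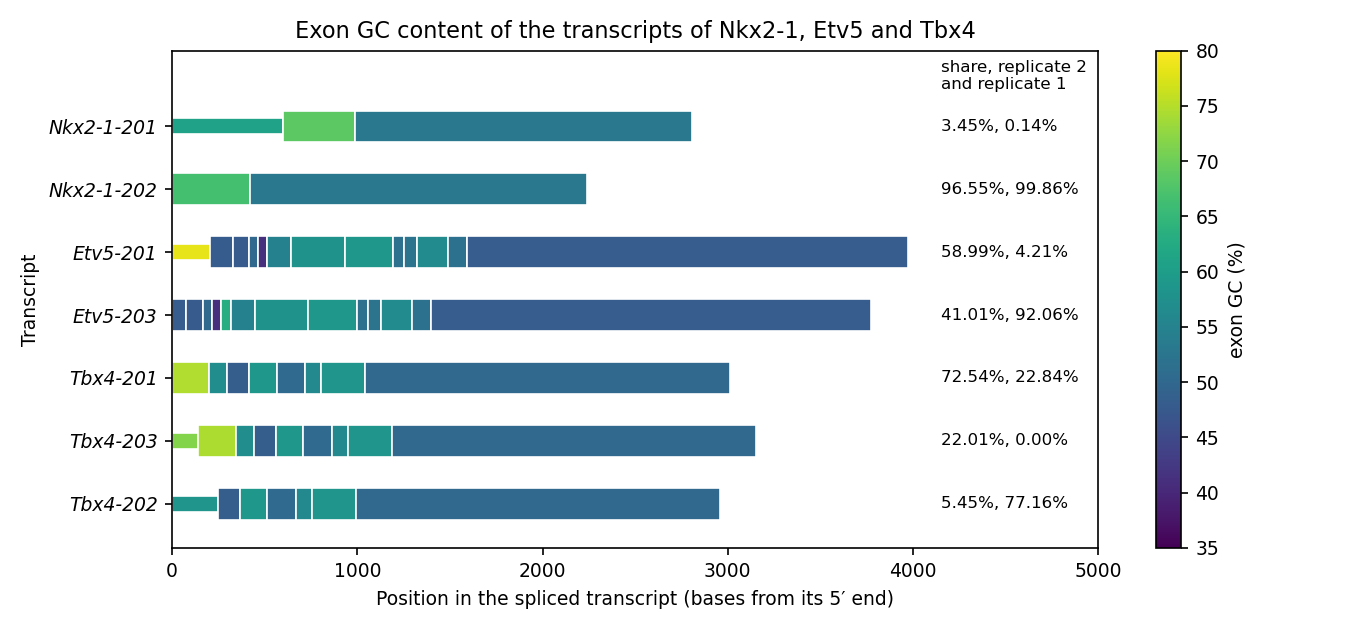
Spliced transcripts of Nkx2-1, Etv5 and Tbx4 drawn to scale in bases from the 5′ end, with each exon coloured by its GC content and exons without coding bases drawn thin. The first exons of Etv5-201, at 78.3%, and Tbx4-201, at 74.6%, are the most GC-rich of their transcripts, and Tbx4-202 lacks such an exon.

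For Tbx4-202 and Nkx2-1-201 the transcript start is also the RefSeq start of the gene. The 250 bases before each start are given from the RefSeq promoter table on GRCm38.p6, 5′ to 3′, with each CpG in capitals. They are shown as the starts of transcripts with a first exon of their own. That of Tbx4-202 (chr11:85896515-85896764, plus strand) has 58.4% GC and 6 CpG. That of Nkx2-1-201 (chr12:56536909-56537158, minus strand) has 50.8% GC and 9 CpG, and lies within the span of the antisense gene Gm26973.
Tbx4-202: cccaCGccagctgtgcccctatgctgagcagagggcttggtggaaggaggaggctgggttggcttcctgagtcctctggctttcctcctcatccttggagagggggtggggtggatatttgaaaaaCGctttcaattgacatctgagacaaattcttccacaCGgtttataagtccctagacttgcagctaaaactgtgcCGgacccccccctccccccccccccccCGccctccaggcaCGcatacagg
Nkx2-1-201: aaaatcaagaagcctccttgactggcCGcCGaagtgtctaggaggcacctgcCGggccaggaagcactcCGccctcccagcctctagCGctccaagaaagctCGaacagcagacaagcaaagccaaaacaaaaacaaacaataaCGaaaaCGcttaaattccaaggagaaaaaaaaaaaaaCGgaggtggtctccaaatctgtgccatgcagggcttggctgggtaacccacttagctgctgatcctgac

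Promoters of 6 members were found among the 32851 of the table. With the 50 bases after the start included, the GC content of the promoter window was 74.0% for the Etv5 start that is also that of Etv5-204, 149 bases after the start of Etv5-201, 67.3% for Cebpa, 66.3% for Sox2, 60.0% for the other Etv5 start, 59.0% for Tbx4, 53.7% for Nkx2-1 and 53.3% for Tcf21. The median over the table was 52.7%. The number of CpG in these windows was 37, 29, 27, 19, 8, 12 and 8 in the same order, with a median of 7 over the table. Each of these windows thus held more CpG than the median, and Tbx4 and Tcf21 only just did so.

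Genes that overlap a member on the other strand could share its reads, because the sources used here do not say whether strand was used in counting. Gm26973, antisense to Nkx2-1 over 1566 bases, had 29 counts in each library. 1010001N08Rik, antisense to the start of Gata6 over 504 bases, had 18 counts in replicate 2 and 17 in replicate 1. Both had far fewer counts than the member they overlap. Gm10824, antisense to the whole of Tcf21, Gm45091, antisense to the start of Cebpa, and Sox2ot, whose span holds Sox2 on the same strand, were not analysed here. Reads from Gm10824 and Tcf21 therefore cannot be told apart. Strand would not separate Sox2ot from Sox2, and whether their exons overlap was not examined. Of the genes within 1000 bases of a member, 2610027K06Rik, 327 bases before Tbx2 on the other strand, had 59 counts in replicate 2 and 17 in replicate 1. Gm27611 near Sox2 and BC006965 near Sox9 were at 0 in both libraries, and Gm43050 near Tbx5 was not analysed here.

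The relatives of each member were then compared, with levels in TPM. Over all genes tested 39.3% were over 2-fold higher in replicate 2 and 28.2% lower, with a median log2 ratio of 0.19. These shares are the baseline for the counts of every family that follows. Of 17 T-box genes, 7 were at a TPM of at least 1 in both libraries, and of 8 tested 2 were over 2-fold higher and 2 lower in replicate 2, with a median log2 ratio of -0.49. Tbx3, the closest relative of Tbx2, was at 19.1 TPM in replicate 2, against 42.0 TPM in replicate 1, so the order of Tbx2 and Tbx3 differed between the libraries. By scaled counts Tbx3 lay within 2-fold, at a log2 ratio of -0.98. Mga, which combines a T-box with a bHLH domain, was at 3.42 and 12.4 TPM. T, Tbx10 and Tbx22 were at 0 in both libraries.

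Of 20 Sox genes, 7 were at a TPM of at least 1 in both libraries, and of 8 tested 2 were over 2-fold higher and 4 lower, with a median log2 ratio of -1.06. The endothelial factors Sox18, Sox7 and Sox17 were the relatives of highest levels along with Sox4. Sox18 was at 83.2 TPM in replicate 2, against 0.68 TPM in replicate 1, Sox7 at 20.1 and 39.4 TPM, Sox17 at 17.9 and 22.3 TPM, and Sox4 at 8.70 and 34.8 TPM. Sox13 was at 23.8 TPM in replicate 2, against 1.94 TPM in replicate 1. By mean TPM Sox2 thus stood below Sox18, Sox7, Sox4 and Sox17 and above Sox13, and the mean of Sox18 rested on replicate 2 alone.

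Gata2, a factor of endothelium and blood cells, was at 42.0 TPM in replicate 2, against 34.4 TPM in replicate 1, above Gata6 in both. Of 4 Gata genes tested, 1 was over 2-fold higher and 2 were lower in replicate 2, with a median log2 ratio of -0.32. Among the C/EBP genes, Cebpb was at 47.9 TPM in replicate 2, against 68.4 TPM in replicate 1, Cebpd at 69.4 and 37.3 TPM, and Cebpg at 23.2 and 76.9 TPM. Cebpz, counted here by its symbol only, was at 13.9 and 43.2 TPM, and Ddit3, the stress-induced member, at 47.9 and 1.81 TPM. Of 6 tested, Cebpa, Cebpd and Ddit3 were over 2-fold higher, Cebpg and Cebpz were lower, and the median log2 ratio was 0.33.

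Etv1, a relative of Etv5 in the PEA3 group, was at 2.35 TPM in replicate 2, against 11.2 TPM in replicate 1, a 3.79-fold lower scaled count in replicate 2, and of the 2 tested genes of the group only Etv1 was past 2-fold, with a median log2 ratio of -0.73. Etv4 stayed below a TPM of 1 in both. Of 7 Nkx2 genes, only Nkx2-1 reached a TPM of 1, and Nkx2-2, Nkx2-3 and Nkx2-6 were at 0 in both libraries. Of 5 bHLH genes related to Tcf21, only Tcf21 reached a TPM of 1 in both, and the next, Msc, was at 2.87 TPM in replicate 2, against 0.68 TPM in replicate 1. Of the 3 tested in this group, Tcf21 and Msc were over 2-fold higher and Tcf24 was lower, with a median log2 ratio of 1.89. Nkx2-1 and Tcf21 were thus the leading genes of their families in both libraries.

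**Figure D5:**
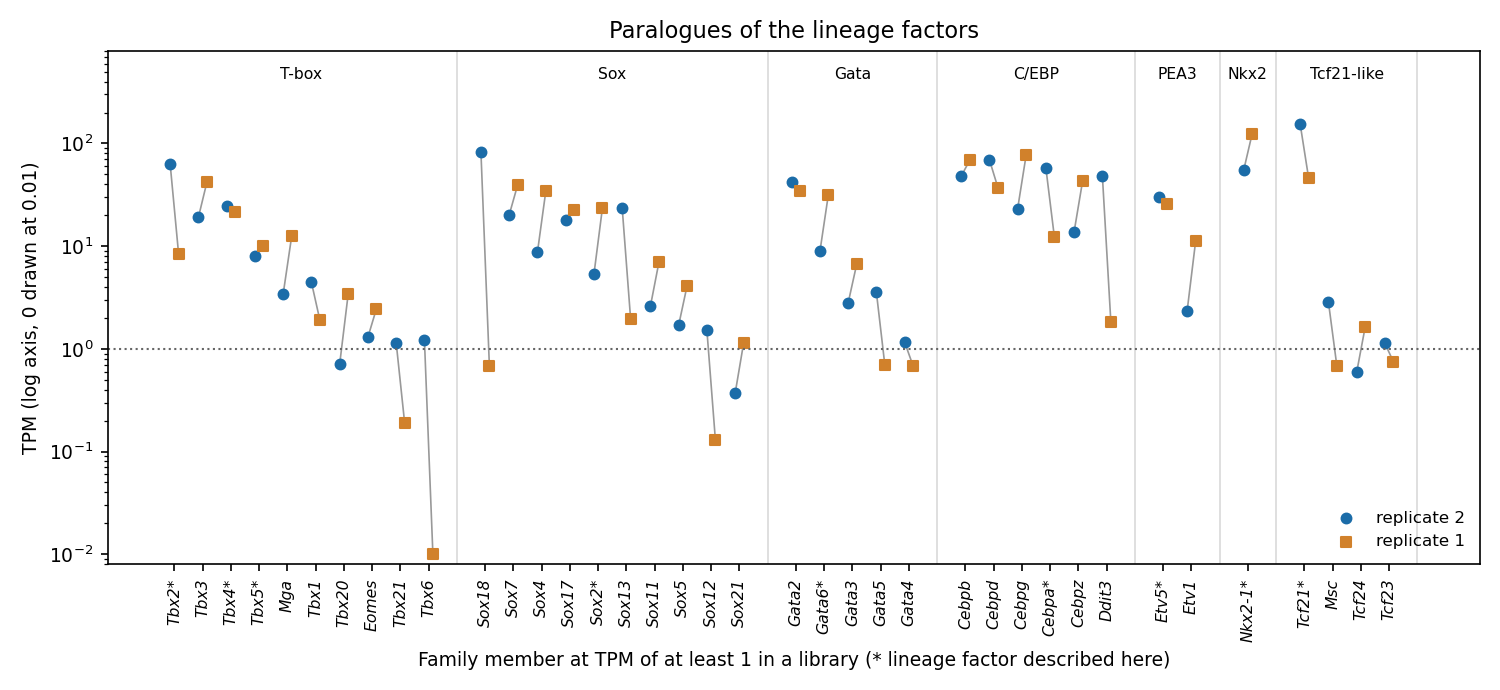
TPM on a log axis of the family members that reached a TPM of 1 in a library, with replicate 2 (circles) left of replicate 1 (squares), a dotted line at 1, stars on the members described here, and a value of 0 drawn at the lowest tick. Tbx2 lies above Tbx3 in replicate 2 and below it in replicate 1, and Sox18 lies at 83.2 TPM in replicate 2 and below the dotted line in replicate 1.

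Other lineage factors were taken from a list of 26 epithelial and a list of 26 mesenchymal genes. Of the epithelial list, 18 reached a TPM of 1 in both libraries. Of 22 tested, 8 were over 2-fold higher in replicate 2, 8 were lower and 6 lay within 2-fold, with a median log2 ratio of -0.32. Among all genes tested 39.3% were higher and 28.2% lower, with a median of 0.19. Hopx, a homeodomain-only factor of alveolar type 1 cells, was at 1090 TPM in replicate 2, against 639 TPM in replicate 1, above every member. Id2, an inhibitor of bHLH factors, was at 82.0 and 237 TPM, Irx2 at 36.1 and 162 TPM, and the forkhead gene Foxp1 at 33.6 and 41.5 TPM. By scaled counts, which the calls use, Hopx was over 2-fold higher in replicate 2, at a log2 ratio of 1.06. Id2 and Foxp1 were over 2-fold lower, at -1.39 and -1.17, and Irx2 lay within 2-fold, at -0.94.

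Of the mesenchymal list, 18 also reached a TPM of 1 in both libraries. Of 22 tested, 5 were over 2-fold higher in replicate 2, 11 were lower and 6 lay within 2-fold, with a median log2 ratio of -1.03. Among all genes tested 39.3% were higher and 28.2% lower, with a median of 0.19. Foxf1, the forkhead factor of lung mesenchyme and endothelium downstream of hedgehog signalling, was at 140.1 TPM in replicate 2, against 171 TPM in replicate 1. Nr2f2 was at 23.2 and 123 TPM, Nfib at 25.4 and 75.7 TPM, and the zinc finger gene Zeb2 at 11.3 and 77.5 TPM. The list summed to 382 TPM in replicate 2, against 781 TPM in replicate 1, whereas the 4 mesenchymal members summed to 250.5 and 86.0 TPM. The median window GC of its tested genes was 40.0%, below the 51.1% of Tbx2 and above the 32.1% of Tcf21.

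Known targets of NKX2-1 were detected in both libraries, 11 of 11. Of these 6 were over 2-fold higher in replicate 2, 1 was lower and 4 lay within 2-fold, with a median log2 ratio of 3.44. Among all genes tested 39.3% were higher and 28.2% lower, with a median of 0.19. Nkx2-1 itself was 2.02-fold lower in replicate 2. The surfactant gene Sftpc was at 39612 TPM in replicate 2, against 287 TPM in replicate 1, and the club cell gene Scgb1a1 at 174257 and 17498 TPM. Scgb3a2, at 4406 and 4671 TPM, and Sftpa1, at 4344 and 1808 TPM, lay within 2-fold by scaled counts. The median window GC of the targets was 46.1%, against 39.2% for Nkx2-1.

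Markers of the cells in which the members act, and of other tissues, were summed in each library. Alveolar type 2 markers, led by Sftpc, Lyz2, Sftpa1 and Cxcl15, summed to 61183 TPM in replicate 2, against 12644 TPM in replicate 1, and type 1 markers, led by Ager, Cav1, Hopx and Emp2, to 5364 and 3262 TPM, each with 10 of 10 detected in both. Club cell markers, led by Scgb1a1, Scgb3a2, Cbr2 and Aldh1a1, had 9 of 10 detected in both, with sums of 188536 TPM in replicate 2 and 25121 TPM in replicate 1. Ciliated cell markers, led by Tppp3, Tubb4b, Dynlrb2 and Ccdc153, had 8 of 10, with sums of 1289 and 168 TPM. Fibroblast markers, led by Inmt, Dcn, Limch1 and Mfap4, had 12 of 12, with sums of 4832 and 2619 TPM. Smooth muscle and pericyte markers, led by Postn, Acta2, Tagln and Des, had 8 of 10, with sums of 1068 and 631 TPM. Of 6 basal cell markers, led by Trp63, Krt15, Aqp3 and Ngfr, none reached a TPM of 1 in both. Of 7 neuroendocrine markers, led by Calca, Syp, Scg5 and Resp18, 2 did. A sum rests on its highest genes and does not give the direction of a list. Of the type 1 markers 3 were over 2-fold higher in replicate 2 and 4 lower, with Ager at 2508 and 13.7 TPM. Of the fibroblast markers 4 were higher and 4 lower, with Inmt at 3674 and 1169 TPM. Other lists were more one-sided. Of 10 smooth muscle and pericyte markers 9 were higher and 1 lower, with a median log2 ratio of 3.30. The lower gene was Postn, whose 129 and 533 TPM bring the sums of that list closer together. Ciliated cell markers also had 9 of 10 higher and 1 lower. Type 2 markers had 6 of 10 higher and 2 lower, and club cell markers 5 of 10 higher and 1 lower. Over all genes tested 39.3% were higher and 28.2% lower. Every listed type 1, type 2 and fibroblast marker was present at a TPM of at least 1 in both libraries. So were 8 of 9 adipose and 8 of 12 heart muscle markers, and the lists were chosen with earlier results known. This detection is therefore no test of the lung label.

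Heart muscle markers, led by Myl7, Myl4, Actc1 and Tnnt2, summed to 1499 TPM in replicate 2, against 177 TPM in replicate 1, with 8 of 12 detected in both and none at 0. Of 11 tested, 9 were over 2-fold higher in replicate 2 and 1 lower, against 39.3% and 28.2% of all genes tested. Their median window GC was 50.6%, beside 51.1% for Tbx2. Gata6, Tbx2 and Tbx5 are also genes of the heart. Of these 3 only Tbx2 was over 2-fold higher in replicate 2, against 39.3% of all genes tested, and Gata6 was over 2-fold lower, against 28.2%. The part of heart muscle RNA in their levels was not tested. Thyroid markers summed to 8.16 TPM in replicate 2, against 13.3 TPM in replicate 1, of which Iyd made up 5.78 and 12.1 TPM, with Tshr and Slc5a5 near or below 1. Pax8, another listed thyroid marker, was at 0 in both libraries, and Tg was at 1.67 and 0.080 TPM. Nkx2-1 was at 54.8 and 124 TPM, and the part of thyroid RNA in its level was not tested.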

How the data were processed

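Both libraries are polyadenylated RNA-seq of the same lung and were analysed as 1 group. The authors deposited gene and transcript tables on mm10 with annotation release M4, per the deposited file descriptions; the aligner was not given in the sources used here, nor was the quantifier. The authors deposited expected counts, estimated reads per feature; above 0, 89.2% (replicate 2) and 92.1% (replicate 1) were whole to within 0.005. TPM and FPKM are, per the file headers, the authors' length-corrected abundances, and FPKM was not used further. The share of each transcript is the deposited percent of its gene's TPM. A further 26345 rows that name no gene were at 0 and left out.

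Symbols, exons and sequences came from GENCODE M21 on GRCm38, which matched 42462 of 43346 genes. For 5 of the 10 members the length of every transcript was the same there as in the deposit. Expected counts were rounded and scaled by TMM factors of 1.10 for replicate 2 and 0.913 for replicate 1 (edgeR 4.0.16, R 4.3.3), and 0.5 counts were added for log2 ratios. Genes of a mean TPM of at least 1 were compared, past 2-fold. With 1 library a side no p-value is given. Intervals (95%, Clopper-Pearson) and the floor of 3 counts cover counting error only: without molecular identifiers, reads are no independent molecules. Trends on GC were lowess fits with a span of 0.3, over 180-base windows every 10 bases for the second measure. The ratio and the trend were tested on simulated data. The simulated counts carried no GC trend, and the simulated trend was a straight line. These tests therefore do not show how well the scaling or the trends work on the present libraries. Alternatives were DESeq2 1.42.0 size factors, total counts, TPM ratios, other filters and priors, posterior means and the GC trends. Further steps used Python 3.11.15 with pandas 2.3.3, numpy 2.4.6, statsmodels 0.14.6 for trends, scipy 1.17.1 for intervals and matplotlib 3.10.9 for plots.

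The members and gene lists were chosen with earlier results of these data known. All members were named, and so were the 4 genes of highest mean TPM of each list and the family genes of a mean TPM of at least 5. Some genes that met this rule are withheld and the results that need them are left out. Tbxt was matched under its older symbol T. Other genes named for a value of 0, for a direction or as the next of a family were chosen after their values were seen.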

Additional observations from a re-analysis of the deposited data

How the results depend on the processing

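No paired analysis was possible because both libraries belong to 1 group. Subtracting a trend of the ratio on GC content changed the direction of 2 called members: Cebpa came to -3.82 with transcript GC and -0.25 with window GC, and Tbx2 to -3.37 and -0.75 (log2). The median over the members came to -2.38 and -0.25, the members over 2-fold higher in replicate 2 to 0 and 1, and those lower to 7 and 0. Of all genes tested, 21.3% and 17.6% were then over 2-fold higher, and 19.6% and 16.7% were lower. The window trend was chosen after seeing the data. Scaling by total counts moved the median to 0.63 and that over all genes to 0.45, and TPM ratios moved them to 0.18 and 0.01. Under total counts 9 of the 10 members' ratios moved by more than counting error, and Tbx5 came to 0.10; under TPM ratios 4 did. DESeq2 size factors and a prior of 5 counts moved none of the 10 that far. The 9 members detected held at thresholds of 0.5 and 5 TPM and with posterior means, and the count of 8 members with 1 main transcript was also 8 over protein-coding transcripts and posterior shares, although 7 of these have 1 transcript and could not change. A mean without a library is the other library's value. Sox9, with 10 and 16 counts, is limited by depth.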
